A study of Mus musculus with 12 samples.

Results

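The 10 genes described here are used to recognise the endothelial cells of the liver sinusoid and the signals these cells send: Stab1, Stab2, Lyve1, Clec4g, Fcgr2b, Mrc1, Kdr, Pecam1, Gata4 and Rspo3. They were chosen by name with earlier results of these data known, as were the gene lists set beside them. All 10 were listed in the table of protein-coding transcripts, and they made up 10 of its 14188 genes and 22 of its 29883 transcripts. Their levels were compared between 6 livers of the PZH group and 6 livers of the control group. The animals were male mice, given as C57BL/8 in the labels and as C57BL/6J in the methods of the study, and were 6 weeks old at the start. In both groups a mixture of corn oil and CCl4, a solvent toxic to hepatocytes, was injected into the peritoneum 2 times per week at 10 µl/g. On top of this the PZH group was given 0.25 mg/g of Pien Tze Huang (PZH), a traditional Chinese medicine, into the stomach each day, and the control group received double distilled water in its place. All were killed in week 8, and each sample was RNA of 1 whole liver, depleted of ribosomal RNA and sequenced with strand kept. None of the 12 libraries came from a liver without CCl4, so every difference below is between injured livers with and without PZH.

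The sinusoid is the capillary of the liver. Its endothelium has open pores and no continuous basement membrane, and it clears waste from the blood through scavenger and lectin receptors. In chronic injury it can lose its pores, lay down a basement membrane and take on genes of ordinary capillaries such as CD34 and von Willebrand factor, a change called capillarisation. The same cells send angiocrine signals to hepatocytes, stellate cells and macrophages, among them Wnt ligands, R-spondins and growth factors.

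Levels are given as FPKM, the fragments of a transcript scaled to its length and to the mapped fragments of the library, summed over the listed transcripts of a gene. Differences are given on the log2(FPKM + 1) scale as PZH minus control, and a gene passed when its adjusted p from limma, fitted over all 14188 genes, was under 0.05. The difference is smaller on this scale than the ratio of FPKM for low genes. The depth implied by the steps between low values lay between 26.9 and 35.6 M fragments in the control group and between 27.6 and 42.8 M in the PZH group. The mouse PZH 1 stood apart from the others, with the highest sum of FPKM (370426 against 325302 to 346874 in the other mice) and the lowest median transcript (0.773 against 0.842 to 1.06). It also had the lowest Stab1, Stab2, Kdr and Gata4 of all 12 mice, and results that changed without it are given both ways. The median difference of all genes was -0.11. It was -0.001 when each mouse was divided by a median-ratio scale factor, so this scaling is given beside the deposited values. With that factor 2807 of the 14188 genes were higher and 2739 were lower, against 1798 and 4560 as deposited. List counts under that factor are to be read beside these. Without PZH 1 the counts over all genes were 1891 higher and 4546 lower. In whole liver RNA, fewer cells of a type and less RNA per cell cannot be told apart.

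Alternative exons distinguished the listed transcripts of the genes Fcgr2b and Pecam1, and they are printed here because they separate forms of these receptors that differ in the part inside the cell. The first is an exon of 141 bases of Fcgr2b at chr1:170963325-170963465 (GRCm38, minus strand, GENCODE M21), coding for 47 residues. It was held by 2 of the 4 listed transcripts, and the capitals mark the part used by a transcript that leaves the exon early. The next is an exon of 57 bases of Pecam1 at chr11:106671742-106671798 (minus strand), with its in-frame tyrosine codon in capitals, and the last is an exon of 23 bases of Pecam1 at chr11:106662002-106662024, which shifts the reading frame.
Fcgr2b, 141 bases: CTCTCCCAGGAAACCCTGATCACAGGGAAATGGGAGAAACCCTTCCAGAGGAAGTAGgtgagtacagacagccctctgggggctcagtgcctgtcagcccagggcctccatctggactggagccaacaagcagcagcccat
Pecam1, 57 bases: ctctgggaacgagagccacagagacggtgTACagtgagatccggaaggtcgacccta
Pecam1, 23 bases: atctcatggaaaacagatactct

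The sinusoidal receptors did not move as a block. Lyve1 and Pecam1 fell and Mrc1 rose in the PZH group, while the other 7 genes, among them both stabilins, did not pass the test. Thus 3 of the 10 genes passed, against 44.8% of all genes. Of the 3, 1 was higher, against 12.7% of all genes, and 2 were lower, against 32.1%. The study set a rule of a 2-fold change with an unadjusted P under 0.05 for single transcripts. Applied here to gene FPKM with the limma p, it was met by none of the 10 and by 4.02% of all genes. The FPKM of the groups did not overlap for 3 of the 10, against 24.3% of all genes.

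**Figure D1:**
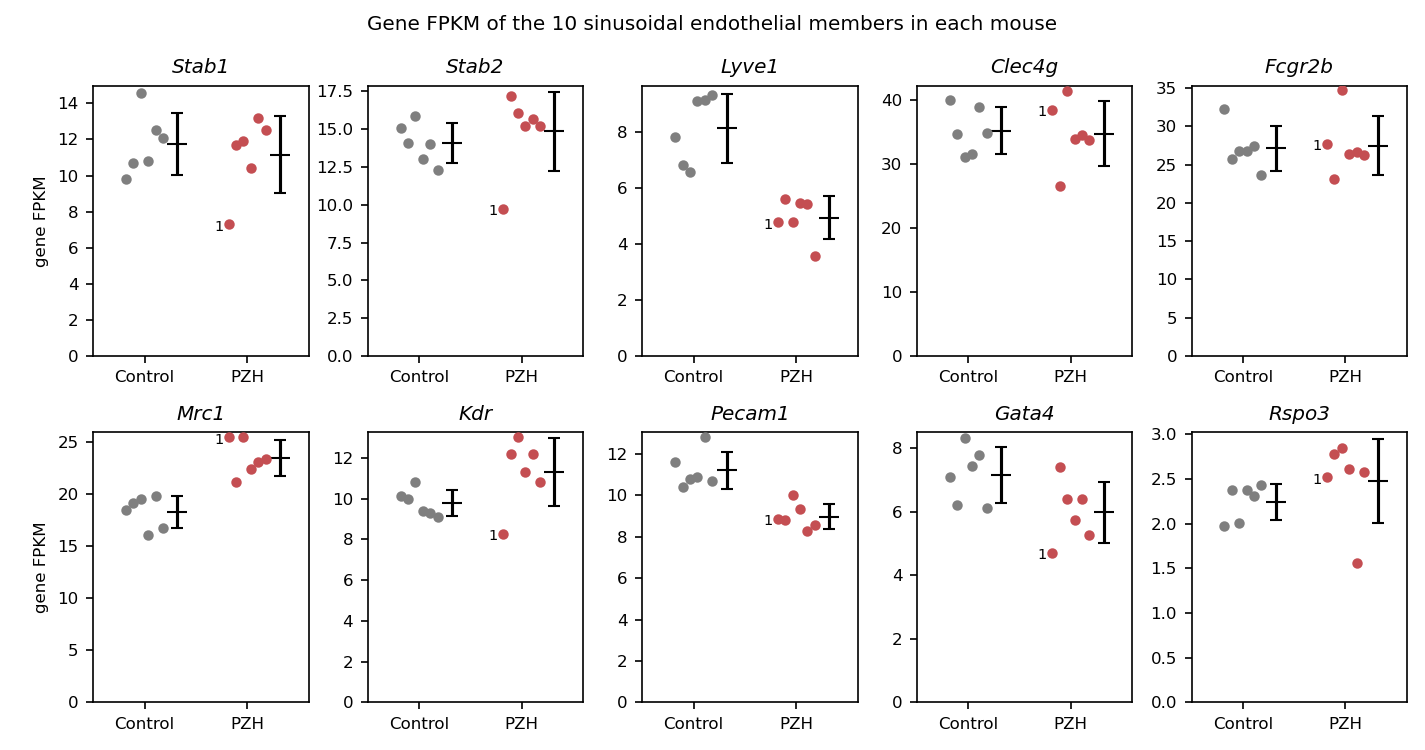
Gene FPKM (vertical axes, linear, from 0) of the 10 genes in each mouse, control in grey and PZH in red, with the mean and SD of 6 mice as a black bar. The mouse PZH 1 is marked 1. The groups are apart for Lyve1, Mrc1 and Pecam1, and PZH 1 lies below all other mice for Stab1, Stab2, Kdr and Gata4.

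Among the scavenger receptors Lyve1 differed between the groups. Lyve1, at chr7:110850607-110863239 on the minus strand, encodes a receptor for hyaluronan that marks sinusoidal and lymphatic endothelium. In the control mice its level was 7.83, 6.84, 6.60, 9.11, 9.15 and 9.34 FPKM, and in the PZH mice it was 4.78, 5.63, 4.78, 5.48, 5.45 and 3.59 FPKM. The highest PZH mouse lay below the lowest control mouse. The mean was 8.14 ± 1.23 FPKM (SD, n = 6) in the control group and 4.95 ± 0.762 FPKM in the PZH group, a control level 1.65-fold the PZH level. The difference was -0.62 ± 0.11 (SE, limma adjusted p = 0.000634), and the two-sided exact permutation test gave its smallest possible p, 0.0022. With the median-ratio factor the difference was -0.45 (limma adjusted p = 0.0033). Leaving out each mouse in turn kept it between -0.67 and -0.55. Relative to the median of all genes Lyve1 was lower by a difference of -0.51.

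Markers of lymphatic endothelium, which also carries Lyve1, are given beside this. Of the 6 on the list 1 was higher and 1 was lower, against 12.7% and 32.1% of all genes. The summed level of the 6 was 49.1 to 63.5 FPKM in the control mice and 54.0 to 73.6 in the PZH mice. Under the median-ratio factor 2 were higher and 0 were lower (limma). Most of this sum came from Prox1 and Reln, which hepatocytes and stellate cells also express, so it does not measure lymphatic vessels. Pdpn, a membrane glycoprotein of lymphatic vessels, fell by 0.53 (limma adjusted p = 0.0202), from 1.99 ± 0.768 to 1.03 ± 0.286 FPKM (SD, n = 6). With the median-ratio factor its adjusted p was 0.067. Reln, a secreted glycoprotein that is also on the stellate cell list, was higher by 0.98 (limma adjusted p = 0.00123). Ccl21a, the lymphatic chemokine, was listed at 0 in 6 of the 12 mice. The part of lymphatic vessels in the Lyve1 difference was not tested.

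The stabilins, large scavenger receptors that take up hyaluronan, modified lipoproteins and other waste, did not pass. Stab1 (chr14:31139013-31168641) had a lowest, median and highest level of 9.79, 11.5 and 14.6 FPKM in the control mice and of 7.29, 11.8 and 13.2 FPKM in the PZH mice. Stab2 (chr10:86841198-87008025) had 12.3, 14 and 15.9 FPKM in the control mice and 9.75, 15.4 and 17.2 FPKM in the PZH mice. Both ranges overlapped widely, and the lowest value of each gene was in PZH 1. The Stab1 difference was -0.08, with a 95% interval from -0.36 to 0.20 (limma adjusted p = 0.649). It was 0.03 without PZH 1 and 0.10 with the median-ratio factor, so its direction depended on both. The Stab2 difference was 0.06, with an interval from -0.19 to 0.31 (limma adjusted p = 0.702). Without PZH 1 it was 0.17 (limma adjusted p = 0.0689), and with the median-ratio factor it was 0.24 (limma adjusted p = 0.0915).

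The lectin and Fc receptors included the most abundant members. Mrc1 (chr2:14229392-14332057, plus strand) encodes the mannose receptor, which sinusoidal endothelium uses to clear glycoproteins and which macrophages also carry. In the control mice its level was 18.4, 19.1, 19.5, 16, 19.8 and 16.7 FPKM, and in the PZH mice it was 25.4, 21.1, 25.4, 22.4, 23.0 and 23.3 FPKM. The lowest PZH mouse lay above the highest control mouse. The mean rose from 18.2 ± 1.58 to 23.4 ± 1.72 FPKM (SD, n = 6), 1.29-fold. The difference was 0.35 ± 0.07 (SE, limma adjusted p = 0.00174), with the smallest possible p of the two-sided exact permutation test, 0.0022. With the median-ratio factor it was 0.53 (limma adjusted p = 0.000365).

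Because macrophages carry Mrc1, the markers of Kupffer cells, the resident macrophages of the liver, and of other macrophages are given beside it. Of 8 such genes 3 were higher and 2 were lower, against 12.7% and 32.1% of all genes. The summed level of the 8 was 193 to 256 FPKM in the control mice and 203 to 300 in the PZH mice. The count was 5 higher and 1 lower with the median-ratio factor. Clec4f, the lectin particular to Kupffer cells, rose from 22.7 ± 6.16 to 34.0 ± 6.82 FPKM (SD, n = 6, limma adjusted p = 0.0251), but did not pass without PZH 3 (limma adjusted p = 0.0548). Vsig4, a complement receptor of resident macrophages, rose by 0.57 (limma adjusted p = 0.0029), and Csf1r, the receptor for macrophage growth factor, rose by 0.38 (limma adjusted p = 0.0108). Marco, a macrophage scavenger receptor, fell by 2.21 (limma adjusted p = 0.000702), from 41.9 ± 15.1 to 9.46 ± 6.88 FPKM (SD, n = 6). The other lower one, named after its values were seen, was Cd68 (27.5 ± 2.89 against 21.9 ± 3.17 FPKM, SD, n = 6, limma adjusted p = 0.02). Cd68 did not pass with the median-ratio factor (limma adjusted p = 0.195). The part of macrophages in the Mrc1 difference was not tested.

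Clec4g (chr8:3716064-3720651), which encodes the sinusoidal lectin LSECtin, was the most abundant of the 10 genes. Its lowest, median and highest levels were 31.2, 34.8 and 40 FPKM in the control mice and 26.6, 34.2 and 41.5 FPKM in the PZH mice. The ranges overlapped, and the difference was -0.02, with an interval from -0.25 to 0.20 (limma adjusted p = 0.868). With the median-ratio factor it was 0.16 (limma adjusted p = 0.291).

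Fcgr2b (chr1:170958617-170976547 over its 4 transcripts) encodes the inhibitory receptor for IgG, by which sinusoidal endothelium clears small immune complexes. Its lowest, median and highest levels were 23.6, 26.8 and 32.3 FPKM in the control mice and 23.1, 26.5 and 34.7 FPKM in the PZH mice. These ranges almost coincided, and the difference was 0.01, with an interval from -0.19 to 0.22 (limma adjusted p = 0.916). It was 0.20 with the median-ratio factor (limma adjusted p = 0.152). B cells also carry this receptor. Of 5 B cell markers none passed with limma (0 of 5), against 44.8% of all genes, while 2 were higher with the median-ratio factor. The summed level of the 5 was 3.02 to 6.21 FPKM in the control mice and 3.91 to 6.51 in the PZH mice. The named markers were Cd79b (2.33 ± 0.659 against 2.78 ± 0.497 FPKM, SD, n = 6) and Cd79a (1.02 ± 0.316 against 0.869 ± 0.126 FPKM), which encode chains of the B cell receptor. Cd79b was higher by 0.33 under the median-ratio factor (limma adjusted p = 0.0477). The part of B cells or of any other cells in the Fcgr2b level was not tested.

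The long exon of Fcgr2b printed above is known from the form of the receptor kept at the surface of B cells, and the form without it is the one known for endocytosis. Transcripts with the exon of 141 bases took 40.3% to 46.1% of the Fcgr2b FPKM in the control mice and 37.0% to 46.9% in the PZH mice. The means were 42.5% ± 1.95 and 42.7% ± 3.40 (SD, n = 6), and the difference did not exceed the spread between mice (two-sided exact permutation test, p = 0.9242). The transcripts that hold it also differ in length and in their ends, so the share rests on how the assembler divided shared reads.

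**Figure D2:**
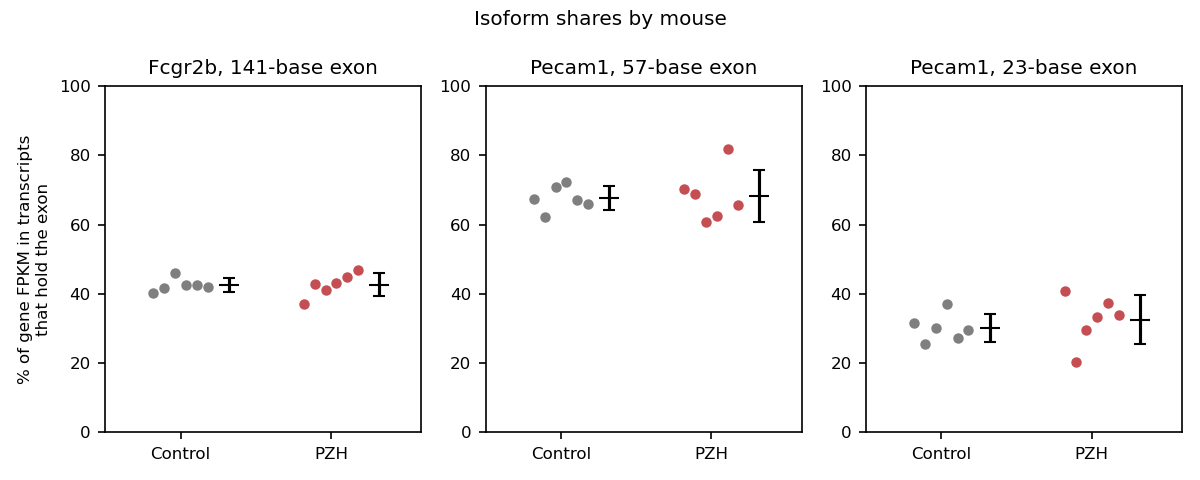
Share of the gene FPKM (vertical axis, %, from 0 to 100) in transcripts that hold each printed exon, in each control mouse (grey) and PZH mouse (red), with mean and SD of 6 mice. The 2 groups overlap for all 3 exons, with means of 42.5% and 42.7% for the Fcgr2b exon.

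Pecam1 (chr11:106654217-106750628 over its 6 transcripts) encodes the junction protein CD31, and Kdr (chr5:75932827-75978458) encodes VEGF receptor 2. Neither is limited to the sinusoid, since all endothelium carries them, and Pecam1 is also on leukocytes and platelets. Pecam1 was at 11.6, 10.4, 10.8, 10.9, 12.8 and 10.7 FPKM in the control mice and at 8.86, 8.81, 10, 9.31, 8.29 and 8.54 FPKM in the PZH mice. The groups did not overlap, though the highest PZH mouse and the lowest control mouse were close. The mean fell from 11.2 ± 0.877 to 8.97 ± 0.614 FPKM (SD, n = 6), a difference of -0.29 ± 0.07 (SE, limma adjusted p = 0.00282; two-sided exact permutation test, p = 0.0022). With the median-ratio factor the difference was -0.12 and did not pass (limma adjusted p = 0.202).

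By transcript, 3 of the 22 listed transcripts of the 10 genes passed, against 19.7% of all transcripts. These were the single transcripts of Lyve1 (limma adjusted p = 0.00245) and Mrc1 (limma adjusted p = 0.00533) and 1 of the 6 Pecam1 transcripts, ENSMUST00000080853, which went from 4.07 ± 0.525 to 2.99 ± 0.636 FPKM (SD, n = 6, limma adjusted p = 0.038). The call of this last transcript was lost when any 1 of 8 of the 12 mice was left out (limma adjusted p up to 0.0818). The tail of CD31 recruits phosphatases through tyrosines, and the exon of 57 bases shown above codes for a stretch of that tail. Its transcripts took 67.6% ± 3.56 of Pecam1 FPKM in the control group and 68.2% ± 7.52 in the PZH group (SD, n = 6, two-sided exact permutation test, p = 0.8918). Those with the exon of 23 bases took 30.2% ± 3.99 and 32.5% ± 7.12 (exact permutation test, p = 0.4935). All 3 exon shares tested had an adjusted p of 0.9242 over the 3 exact permutation tests, so no shift between forms was detectable beside the lower total.

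Kdr was at a lowest, median and highest level of 9.09, 9.68 and 10.8 FPKM in the control mice and of 8.25, 11.8 and 13 FPKM in the PZH mice. The mouse PZH 1 was the lowest of all 12, and the other 5 PZH mice were at 10.8 to 13 FPKM. The means were 9.77 ± 0.645 and 11.3 ± 1.68 FPKM (SD, n = 6), and the difference of 0.18 ± 0.09 (SE) did not pass (limma adjusted p = 0.135; two-sided exact permutation test, p = 0.0844). It passed without PZH 1, at 0.26 (limma adjusted p = 0.00598), and with the median-ratio factor, at 0.36 (limma adjusted p = 0.00404). With that factor 3 of the 10 genes again passed, against 39.1% of all genes, and these were Lyve1, Mrc1 and Kdr in place of Pecam1.

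Gata4 (chr14:63198922-63271692 over its 4 transcripts) encodes the transcription factor that sets the sinusoidal fate of the endothelium and that stellate cells also carry. Its lowest, median and highest levels were 6.11, 7.27 and 8.32 FPKM in the control mice and 4.70, 6.07 and 7.40 FPKM in the PZH mice. The ranges overlapped, with 5 of the 6 PZH mice below the control median. The means were 7.16 ± 0.872 and 5.99 ± 0.956 FPKM (SD, n = 6), and the difference of -0.23 ± 0.10 (SE) did not pass (limma adjusted p = 0.0821; two-sided exact permutation test, p = 0.0563). It was -0.06 with the median-ratio factor. It passed without PZH 2, the highest of its group, at -0.28 (limma adjusted p = 0.0302).

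Rspo3 (chr10:29452418-29535867), the R-spondin released by endothelium of the central vein and by stellate cells, strengthens Wnt signals to the hepatocytes around that vein. It was the lowest of the 10 genes, at 1.97, 2.34 and 2.43 FPKM (lowest, median and highest) in the control mice and 1.56, 2.59 and 2.85 FPKM in the PZH mice. The other 5 PZH mice lay at 2.52 to 2.85 FPKM, above every control mouse, and PZH 5 alone lay below them all. The means were 2.24 ± 0.202 and 2.48 ± 0.470 FPKM (SD, n = 6), and the difference of 0.09, with an interval from -0.11 to 0.30, did not pass (limma adjusted p = 0.463). Without PZH 5 it was 0.18 (limma adjusted p = 0.0385), and with the median-ratio factor it was 0.23 (limma adjusted p = 0.089).

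Stellate cells carry Gata4 and Rspo3, so their markers are given beside both. Of 9 stellate cell and myofibroblast markers 1 was higher and 3 were lower, against 12.7% and 32.1% of all genes. The summed level of the 9 was 72 to 124 FPKM in the control mice and 82.5 to 149 in the PZH mice. Under the median-ratio factor 3 were higher and 3 were lower. The lower ones were Acta2, the smooth muscle actin of myofibroblasts (12.9 ± 3.77 against 6.51 ± 2.99 FPKM, SD, n = 6, limma adjusted p = 0.0123), Lox, a collagen cross-linking enzyme, and Des, an intermediate filament. Lox fell by 0.57 (limma adjusted p = 0.00752) and Des fell by 0.47 (limma adjusted p = 0.00685). The higher one was Reln, at 12.4 ± 4.47 against 24.9 ± 5.16 FPKM. The part of stellate cells in the values of Gata4 and Rspo3 was not tested.

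**Figure D3:**
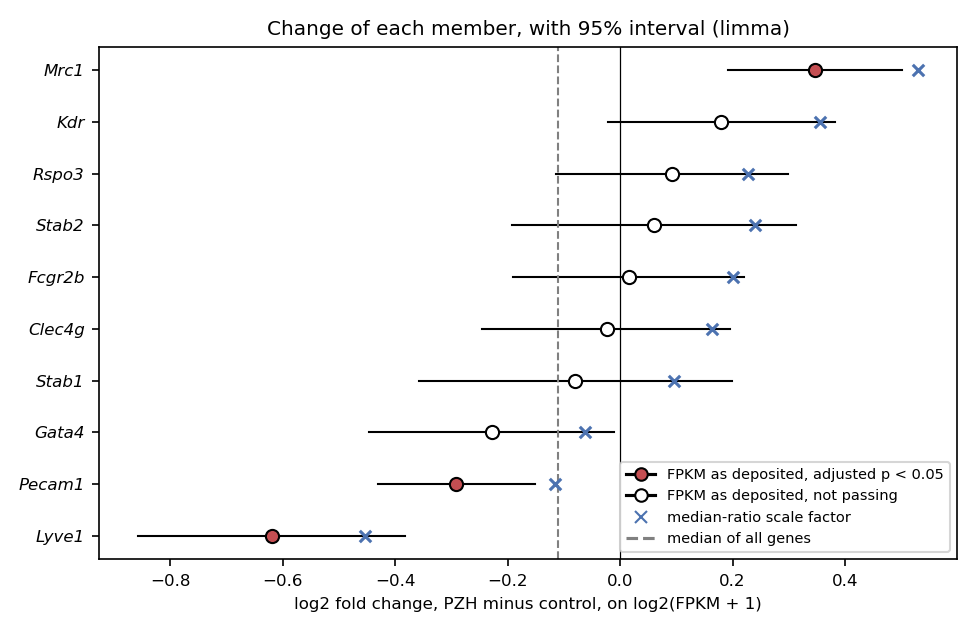
Difference of each gene, PZH minus control on log2(FPKM + 1) (horizontal axis), as circles with the 95% interval from limma, red where the adjusted p was under 0.05. Crosses show the same with the median-ratio factor and the dashed line is the median of all genes, -0.11. Lyve1 lies furthest left at -0.62 and Mrc1 furthest right at 0.35, and all crosses lie to the right of their circles.

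The order of the levels was similar in both groups at the top and differed in the middle. In the control group the mean FPKM fell from Clec4g (35.2) through Fcgr2b (27.1), Mrc1 (18.2), Stab2 (14.1), Stab1 (11.8), Pecam1 (11.2), Kdr (9.77), Lyve1 (8.14) and Gata4 (7.16) to Rspo3 (2.24). The ranges over mice were apart between Fcgr2b and Mrc1, between Mrc1 and Stab2 and between Gata4 and Rspo3, and the other neighbours overlapped. In the PZH group the order was Clec4g (34.8), Fcgr2b (27.5), Mrc1 (23.4), Stab2 (14.9), Kdr (11.3), Stab1 (11.2), Pecam1 (8.97), Gata4 (5.99), Lyve1 (4.95) and Rspo3 (2.48). There the neighbours with ranges apart were Mrc1 and Stab2, Pecam1 and Gata4, and Lyve1 and Rspo3.

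The level of each gene was then set against the mean log2(FPKM + 1) of 16 genes that endothelium of all vessels shares, such as Esam, Flt1 and Ecscr. This reference was itself 2.32 to 2.50 in the control mice and 1.92 to 2.39 in the PZH mice. Against it 2 of the 10 genes did not overlap between the groups, Mrc1 and Kdr, and 17.2% of all genes did not overlap on this measure. Mrc1 lay 1.65 to 2.01 above the reference in the control mice and 2.08 to 2.81 above it in the PZH mice. Kdr lay 0.87 to 1.14 above it in the control mice and 1.28 to 1.5 above it in the PZH mice, where PZH 1 (1.29) no longer stood apart. Lyve1 lay 0.47 to 0.96 above the reference in the control mice and between -0.07 and 0.61 in the PZH mice, with overlap. For Pecam1, PZH 1 was at 1.38, above every control mouse (1.10 to 1.29), and the other 5 PZH mice were at 0.91 to 1.08, below them.

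**Figure D4:**
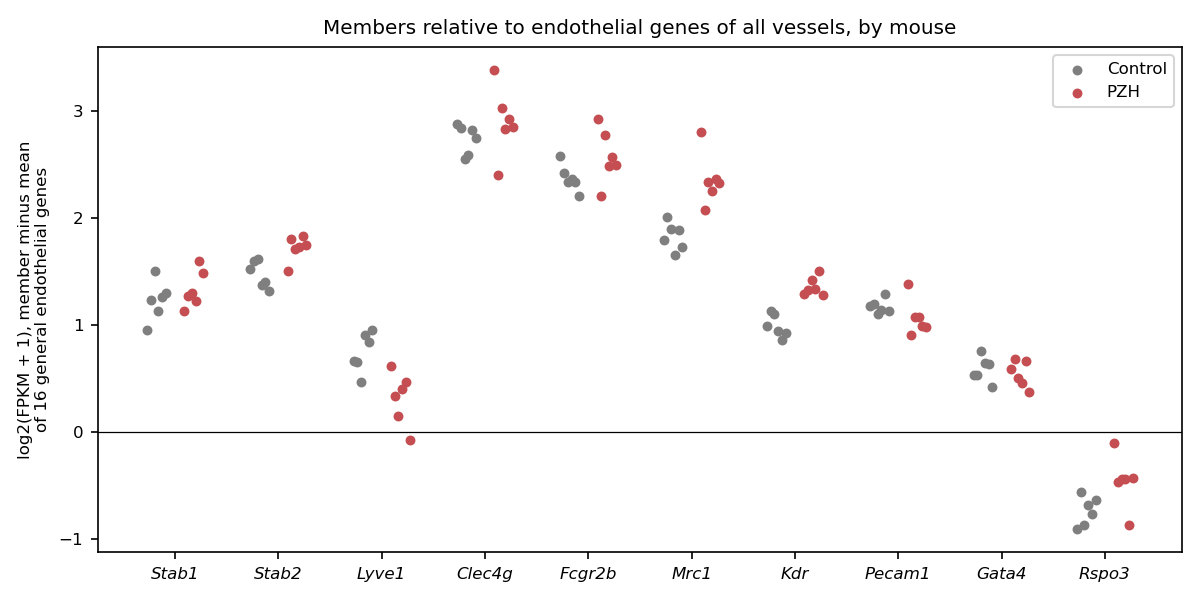
Level of each gene minus the mean of 16 endothelial genes of all vessels, both on log2(FPKM + 1) (vertical axis), in each control mouse (grey) and PZH mouse (red). The groups are apart for Mrc1 and Kdr, and PZH 1 is the highest mouse for Fcgr2b, Mrc1, Pecam1, Clec4g and Rspo3.

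Of these 16 genes 3 were lower, against 32.1% of all genes, and 13 did not pass. The median difference of the 16 was -0.17 against -0.11 over all genes. The lower ones were Ecscr, an endothelial surface regulator (5.29 ± 0.724 against 3.17 ± 0.516 FPKM, SD, n = 6, limma adjusted p = 0.000357), Esam, a junction adhesion molecule, and Flt1, VEGF receptor 1. Esam fell by 0.36 (limma adjusted p = 0.0113) and Flt1 fell by 0.26 (limma adjusted p = 0.0355), though Flt1 did not pass when any 1 of 7 mice was left out (limma adjusted p = 0.0505 to 0.0743). With the median-ratio factor Esam and Flt1 did not pass (limma adjusted p = 0.0712 and 0.276), and over the list 1 gene was higher and 1 lower.

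Of 12 other genes typical of the sinusoidal endothelium 2 were higher, 1 was lower and 9 did not pass, with a median difference of 0.05. Over all genes 12.7% were higher and 32.1% lower. Ehd3, an endocytic transport protein, rose from 15.1 ± 0.909 to 21.2 ± 3.80 FPKM (SD, n = 6, limma adjusted p = 0.00554). Maf, a transcription factor of these cells, rose from 11.3 ± 0.794 to 14.4 ± 2.05 FPKM (limma adjusted p = 0.0181). Thbd, the anticoagulant thrombomodulin, fell from 9.04 ± 2.72 to 3.54 ± 0.775 FPKM (SD, n = 6), a difference of -1.11 ± 0.18 (SE, limma adjusted p = 0.000381). The count was 6 higher and 1 lower with the median-ratio factor, and 3 higher and 1 lower without PZH 1.

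Among genes of capillarised endothelium 3 of 10 fell and 1 rose in the PZH group, against 32.1% and 12.7% of all genes. Of 12 on the list, Aplnr and Apln were not analysed here, and of the other 10 there were 3 lower, 1 higher and 6 that did not pass, with a median difference of -0.29. Icam1, an adhesion molecule for leukocytes, fell from 15.6 ± 4.13 to 7.52 ± 1.64 FPKM (SD, n = 6, limma adjusted p = 0.000533). Vcam1, another such molecule, fell from 21 ± 2.91 to 14.6 ± 1.81 FPKM (limma adjusted p = 0.00159). Itgb3, the integrin chain β3, fell from 3.31 ± 0.395 to 1.47 ± 0.368 FPKM (limma adjusted p = 7.2e-05). In these 3, named because they passed, the groups did not overlap, against 24.3% of all genes. They also passed with the median-ratio factor. Icam1 and Vcam1 are also made by other activated cells, and the list is not limited to endothelium. Cd34, the classical marker of capillarisation, was higher by 0.25 (2.96 ± 0.588 against 3.67 ± 0.189 FPKM, SD, n = 6, limma adjusted p = 0.0369), with overlap. This call was lost when any 1 of 9 of the 12 mice was left out, PZH 1 among them (limma adjusted p = 0.0519 to 0.0815). Cd34 was higher by 0.40 with the median-ratio factor (limma adjusted p = 0.00273). Vwf, named because von Willebrand factor is a marker given above, was at 2.8 ± 0.636 against 2.23 ± 0.479 FPKM (SD, n = 6). It did not pass as deposited (limma adjusted p = 0.153) or with the median-ratio factor (limma adjusted p = 0.529).

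The vascular basement membrane genes gave 4 lower and 0 higher of 10 (limma), against 32.1% of all genes lower, with a median difference of -0.16 against -0.11 over all genes. Without PZH 1 the count was 4 lower and 1 higher. Nid1, the linker protein nidogen, fell from 39.3 ± 7.23 to 16.9 ± 5.11 FPKM (SD, n = 6), a difference of -1.20 ± 0.17 (SE, limma adjusted p = 0.000164). Lamc1, a laminin chain, fell by 0.65 (limma adjusted p = 0.00325), Col4a2 fell by 0.51 (limma adjusted p = 0.014) and Col4a1 fell by 0.48 (limma adjusted p = 0.0305). The collagen IV chains did not pass with the median-ratio factor (limma adjusted p = 0.0523 and 0.109), where the count was 1 higher and 2 lower. Col4a1 also did not pass when any 1 of 6 mice was left out (limma adjusted p = 0.0501 to 0.0646). Stellate cells make these proteins too, and their share was not tested.

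The regulators of endothelial state gave 4 lower and 0 higher of 13 (limma), also with the median-ratio factor and without PZH 1, where 32.1% of all genes were lower as deposited. Their median difference was -0.17. Id1, a target of BMP signals, fell from 42.3 ± 8.95 to 11.2 ± 3.54 FPKM (SD, n = 6), a difference of -1.84 ± 0.20 (SE, limma adjusted p = 2.7e-05). Klf4 fell by 1.02 (limma adjusted p = 8.9e-05) and Klf2 fell by 0.46 (limma adjusted p = 0.0117). Both encode transcription factors that answer to blood flow. Nos3, the endothelial nitric oxide synthase, fell by 0.46 (limma adjusted p = 0.00167), from 1.89 ± 0.292 to 1.10 ± 0.260 FPKM (SD, n = 6). In these 4, named because they passed, the groups did not overlap, against 24.3% of all genes. All are levels of whole liver, and the part of endothelium in them was not tested.

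Of 12 other angiocrine ligands 6 were lower, 1 was higher and 5 did not pass, with a median difference of -0.29. Over all genes 32.1% were lower and 12.7% higher. With the median-ratio factor 4 of the ligands were lower and 1 was higher. Kitl, the ligand of the receptor Kit, fell by 0.64 (limma adjusted p = 0.00206), and Jag1, a Notch ligand, fell by 0.59 (limma adjusted p = 0.00113). Hgf, the hepatocyte growth factor, fell from 21.7 ± 4.59 to 14.7 ± 2.27 FPKM (SD, n = 6, limma adjusted p = 0.00706) and did not pass with the median-ratio factor (limma adjusted p = 0.0642). Angpt2, the angiopoietin that destabilises vessels, fell by 0.48 (limma adjusted p = 0.00724). The higher one, named after its values were seen, was the chemokine Cxcl12 (42.9 ± 5.14 against 55.0 ± 6.84 FPKM, SD, n = 6, limma adjusted p = 0.0126).

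Around Kdr, 4 of 7 VEGF ligands and co-receptors were lower and 0 were higher (limma), against 32.1% and 12.7% of all genes. The median difference of the list was -0.27. Pgf, the placental growth factor, was at 0.495 to 5 FPKM in the control mice and at 0 to 0.104 FPKM in the PZH mice, without overlap (difference -1.56, limma adjusted p = 0.0012). Vegfb fell by 0.38 (limma adjusted p = 0.024) and Vegfd fell by 0.34 (limma adjusted p = 0.00385). Nrp2, a co-receptor, fell by 0.27 (limma adjusted p = 0.0364), but did not pass with the median-ratio factor (limma adjusted p = 0.264) or without any 1 of 7 mice, PZH 1 among them (limma adjusted p = 0.0518 to 0.0804). Vegfb did not pass with the median-ratio factor (limma adjusted p = 0.147) or without Control 1 (limma adjusted p = 0.0531) or Control 4 (limma adjusted p = 0.0535). With that factor the count was 1 higher and 2 lower.

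Of 8 R-spondin receptors and feedback genes of Wnt signals Lgr6 was not analysed here. Of the other 7 there were 4 higher, 0 lower and 3 that did not pass (limma). The shares over all genes were 12.7% higher and 32.1% lower, and the median difference of the list was 0.32. The count was 5 higher and 0 lower both without PZH 1 and with the median-ratio factor (limma). Axin2, a feedback inhibitor that Wnt signals induce, rose from 1.5 ± 0.455 to 3.54 ± 0.884 FPKM (SD, n = 6), a difference of 0.86 ± 0.15 (SE, limma adjusted p = 0.00065). Lgr4, an R-spondin receptor, rose from 9.59 ± 0.904 to 13 ± 1.20 FPKM (limma adjusted p = 0.00109). Lgr5, the R-spondin receptor of hepatocytes at the central vein, rose by 0.39 (limma adjusted p = 0.0267), a call lost when any 1 of 6 mice was left out (limma adjusted p = 0.0512 to 0.0599). Sp5, a Wnt target, was at 0 to 0.0443 FPKM in the control mice and at 0.157 to 0.358 FPKM in the PZH mice, close to 0 in both. The ligand Rspo3 itself did not pass.

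**Figure D5:**
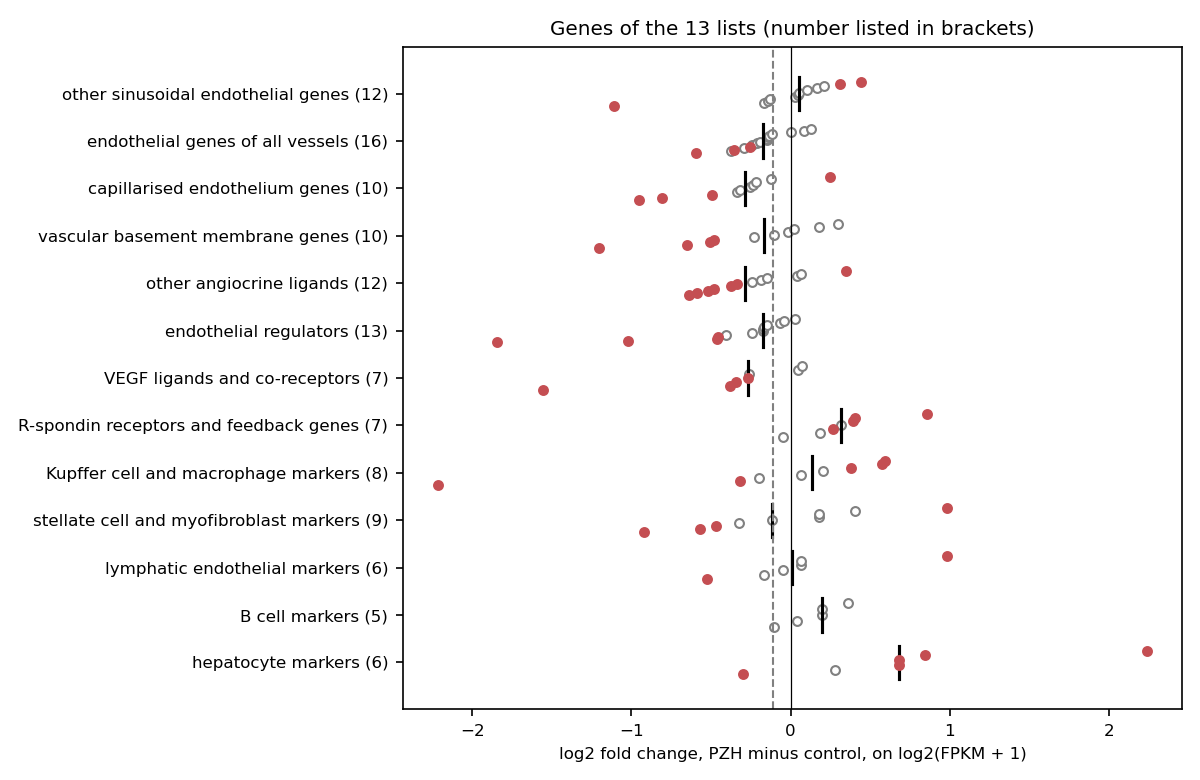
Difference of every gene on the 13 lists set beside the 10 genes, PZH minus control on log2(FPKM + 1) (horizontal axis), red where the limma adjusted p was under 0.05 and open where not. The short black line is the median of a list and the dashed line the median of all genes, -0.11. Medians lie furthest left for other angiocrine ligands (-0.29) and capillarised endothelium (-0.29), and furthest right for hepatocyte markers (0.68) and R-spondin receptors (0.32).

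Hepatocyte RNA moved in the same libraries. Of 6 hepatocyte markers 4 were higher and 1 was lower, against 12.7% and 32.1% of all genes. The summed level of the 6 was 21800 to 35500 FPKM in the control mice and 40100 to 55900 in the PZH mice, without overlap. Cyp2e1, the cytochrome that activates CCl4, rose from 206 ± 60.4 to 972 ± 263 FPKM (SD, n = 6, limma adjusted p = 1.7e-05). Cps1, of the urea cycle, rose by 0.85 (limma adjusted p = 0.000335), and the plasma proteins Alb and Ttr both rose by 0.68 (limma adjusted p = 0.000697 and 0.00311). Since FPKM of a library share 1 total, the part of this larger hepatocyte sum in the lower values above was not tested. The lower one, named after its values were seen, was the transcription factor Hnf4a (166 ± 7.94 against 135 ± 15.2 FPKM, SD, n = 6, limma adjusted p = 0.00937), without overlap, and Alb made up most of the summed level. The median-ratio factor gave 0 lower hepatocyte markers (limma) and 5 higher.

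Within the groups the 10 genes varied in different ways. After the mean of each group was subtracted, 21 of the 45 pairs had a Pearson r above 0 over the 12 mice, with a median of -0.053, and of 0.091 without PZH 1. These are descriptions over 12 libraries that share their scaling. The highest was between Stab2 and Kdr, at 0.939, and at 0.766 without PZH 1. Clec4g and Fcgr2b were at 0.774 (0.796 without PZH 1), Stab2 and Gata4 at 0.752 (0.678), and Stab1 and Stab2 at 0.739, which was 0.2 without PZH 1. Lyve1 and Mrc1 were at -0.494 (-0.509). Among 10948 genes of at least 1 FPKM, the genes most like Stab2 over the 12 mice were Dnase1l3 (0.972), Ap1b1 (0.965) and Tm7sf3 (0.955), and without PZH 1 these were 0.875, 0.882 and 0.844. Dnase1l3 is itself a secreted nuclease typical of sinusoidal endothelium. Such genes were sought for all 10 members, and the full sets are given only for Stab2, Lyve1 and Rspo3. Of the others, 2 genes are named only because they are on the macrophage list. These were Vsig4 beside Mrc1 (0.84, and 0.89 without PZH 1) and Cd5l beside Fcgr2b (0.844, and 0.846 without PZH 1). Neither was the gene most alike. Hist1h4f (0.888) stood above Vsig4, and Aatf (0.87) and Bap1 (0.853) stood above Cd5l, and these are not on that list. With 10948 genes searched over 12 mice, high values can arise by chance, and none was tested. The genes most like Lyve1 were Zbtb11 (0.947), Taf4b (0.942) and Ubl4a (0.923), and those most like Rspo3 were Cd300ld5 (0.934), Stk4 (0.923) and Zbtb6 (0.900).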

How the data were processed

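From the liver RNA of 12 mice the authors made strand-specific libraries, with a read length of 150 bp. They trimmed reads with Trimmomatic, mapped them to GRCm38 with HISAT2 2.1.0, assembled transcripts with StringTie 1.3.5 and Ensembl release 95, and deposited FPKM per transcript and mouse. Gene FPKM was the sum of a gene's protein-coding transcripts, assigned by GENCODE M21 (29876 of 29883). The table of lncRNA transcripts was not used. Groups were taken from the sample titles. The members and lists were chosen with earlier results of these data known, and exon shares were added after the transcripts were seen.

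Values on log2(FPKM + 1), a pseudocount of 1 with no filter, were compared in R 4.3.3 with limma 3.58.1 with Benjamini-Hochberg adjustment over all genes, or over all transcripts. Single genes and exon shares were also compared by two-sided exact permutation tests, which cannot give a p below 0.0022 with 6 mice per group. In each list up to 4 passing genes with the largest absolute difference were named, or the 2 most abundant where none passed, along with markers at 0, of which 1 is not reported here. The procedure was tested on simulated data. Tables were handled in Python (3.11.15) using numpy (2.4.6) and pandas (2.3.3), and plots used matplotlib (3.10.9). Exact tests went through all 924 labellings with numpy. Coordinates and exon sequences are from GRCm38.

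Between 4.71% and 9.14% of the low values of a mouse fell on whole multiples of 1 fragment, so read counts could not be rebuilt, and precision is given by the spread between mice. At the implied depths a value of Rspo3 rests on about 144 to 333 fragments and one of Lyve1 on about 316 to 939. The alternatives tried were a median-ratio factor, a pseudocount of 0.1, only genes with a mean FPKM of 1 or more, an equal FPKM sum, no variance moderation, a mean-variance trend, the mouse number as a block, the highest transcript in place of the sum, and each mouse left out.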

Additional observations from a re-analysis of the deposited data

Results flagged for a closer look

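The 10 members and 45 other genes, those named by the rule for each list, gave 110 groups of 6 mice. In 6 of these groups the lowest or highest mouse was set far from the other 5. This was measured as the gap to its nearest neighbour over the whole range of the group. Chance gives about 1 such group in 20. Among the members these were Stab2, where PZH 1 was lowest at 9.75 FPKM with the next mouse at 15.2 (gap of 0.729 of the range), and Rspo3, where PZH 5 was lowest at 1.56 FPKM with the next at 2.52 (0.747). Among the other genes Maf was lowest in PZH 1 at 10.4 FPKM against 14.4 (0.73), and Lgr5 was highest in Control 4 at 1.68 FPKM against 0.792 (0.721). Lox was highest in PZH 2 at 3.09 FPKM against 1.92 (0.66), and Cd79a was highest in Control 5 at 1.62 FPKM against 0.991 (0.665).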

How the results depend on the processing

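Of 200 member values under the alternatives, 186 kept their direction and their side of the threshold, 1 lost its call, 4 gained one and 9 changed sign. The calls of Lyve1 and Mrc1 held under every alternative run. Pecam1 lost its call with the median-ratio factor only (-0.12). Kdr gained one with that factor (0.36) and without PZH 1 (0.26), Gata4 without PZH 2 (-0.28) and Rspo3 without PZH 5 (0.18). The sign changes were in genes that did not pass: Stab1 with the median-ratio factor (0.096) and without PZH 1 (0.027), Clec4g with that factor (0.163) and without Control 1 (0.012), Control 5 (0.005) or PZH 2 (0.048), and Fcgr2b with an equal FPKM sum (-0.027) and without Control 6 (-0.022) or PZH 3 (-0.053). The median-ratio factor moved the counts over all genes from 1798 to 2807 higher and from 4560 to 2739 lower, so that 49.4% and not 71.7% of passing genes were lower, and over the 13 lists from 16 to 32 higher and from 32 to 21 lower. The cause was not tested. Other settings kept these counts within 1.5 times. Leaving out each mouse gave 3 to 4 members passing. It gave a range of -0.128 to 0.027 for Stab1, -0.077 to 0.048 for Clec4g and -0.053 to 0.064 for Fcgr2b. Of 43 named genes of the lists that passed, 7 lost their call without some mouse.

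Mice of the same number did not pair: their deviations from the group means correlated at -0.078 to 0.093, and 1 control mouse was closest to its own number. With the mouse number as a replicate block 3 members passed, with 1694 genes higher and 4288 lower.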
